A study of Mus musculus with 4 samples.

Results

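The genes described here are the translation initiation factors outside the cap-binding complex, taken as every gene whose symbol is Eif followed by a digit, without the Eif4e, Eif4g and Eif2ak families. The array named 35 such genes by a probe set that carries 1 gene symbol, of 18193 genes named in that way. Of these, 34 passed the filter on dim probe sets, as did 12565 genes in all. Eif4a3, an eIF4A paralogue that belongs to the exon junction complex, did not pass: it was read at 1.5, 1.4, 1.9 and 2.5 units on the arrays of fed control, starved control, fed knockout and starved knockout muscle. The rule keeps the eIF4A genes, although the eIF4A protein is itself a subunit of the cap-binding complex eIF4F. Eif1, Eif2s1 and Eif3g were named by no single-gene probe set, and the probe sets of the Eif3j genes carry more than 1 symbol, so these subunits were not analysed here.

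Gastrocnemius muscle was taken from male mice, given in the methods as 2 to 4 months old, from C57BL/6N crossed with FVBN. Control mice carried floxed alleles of FoxO1, FoxO3 and FoxO4 and were labelled wild type, and knockout mice carried the same floxed alleles together with Cre recombinase driven by the muscle-specific MLC1f promoter. That promoter is described as active in fast type II fibres and silent in slow type I fibres, and non-muscle cells of the tissue keep their FoxO genes. Mice of each genotype were fed ad libitum or starved for 24 h with free access to water. RNA from 6 muscles of 3 mice was pooled for each condition and read on 1 Affymetrix array, so there were 4 arrays and no replicate. No difference below has an error or a test. A gene is called higher or lower only where signals differ by 1.5-fold or more, and each such call compares a pair of pooled RNA samples, not the conditions. All values are MAS 5.0 signals in the linear units of the array or log2 ratios of these signals. Where 4 signals of a gene are given, they stand in the order fed control, starved control, fed knockout, starved knockout.

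Translation initiation brings the small ribosomal subunit, the initiator methionine tRNA and the start codon together. The factor eIF2 carries the tRNA as a complex with GTP, eIF3 and eIF1 with eIF1A hold the small subunit in a state that can scan the messenger RNA, and the helicase eIF4A unwinds structure ahead of it. eIF5 triggers GTP hydrolysis by eIF2 at the start codon, eIF5B joins the large subunit, and eIF2B reloads eIF2 with GTP. Phosphorylation of the eIF2 alpha subunit blocks eIF2B and slows protein synthesis, and the 4E-BP proteins slow it by holding the cap-binding protein eIF4E. In skeletal muscle protein synthesis falls during fasting, and FoxO factors drive part of the transcription that accompanies fasting atrophy.

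Promoter sequence was read from RefSeq on GRCm38.p6 for 29 of the 35 genes, which have 34 windows of 250 bases before to 50 bases after the start. The 7 letters GTAAACA, a core FoxO binding element, occurred on either strand in 1 member gene, Eif2s3y, and in 1199 of all 32851 windows (3.65%). The longer form TTGTTTAC, which contains the reverse complement of the first motif, occurred in no member and in 1.23% of all windows. The 250 bases before the start are shown for Eif4a1, Eif3a and Eif2b4, 3 genes followed below with all of their probe sets, and for the single gene that holds the motif. Capitals mark the motif, which in Eif2s3y was read as its reverse complement from 112 bases before the start. Eif4a1 lies at chr11:69672424-69672673 on the minus strand, Eif3a at chr19:60790694-60790943 on the minus strand, Eif2b4 at chr5:31193140-31193389 on the minus strand, and Eif2s3y at chrY:1010345-1010594 on the plus strand.
Eif4a1: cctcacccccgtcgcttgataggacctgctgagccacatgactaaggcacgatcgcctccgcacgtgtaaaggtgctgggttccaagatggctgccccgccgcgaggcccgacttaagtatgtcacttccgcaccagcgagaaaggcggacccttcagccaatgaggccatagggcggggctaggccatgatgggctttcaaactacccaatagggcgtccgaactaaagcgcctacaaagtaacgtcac
Eif3a: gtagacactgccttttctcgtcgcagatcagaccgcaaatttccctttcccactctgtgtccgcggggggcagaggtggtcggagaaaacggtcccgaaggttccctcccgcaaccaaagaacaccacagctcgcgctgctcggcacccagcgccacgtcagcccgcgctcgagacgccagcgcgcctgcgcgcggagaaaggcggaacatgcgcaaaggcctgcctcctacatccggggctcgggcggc
Eif2b4: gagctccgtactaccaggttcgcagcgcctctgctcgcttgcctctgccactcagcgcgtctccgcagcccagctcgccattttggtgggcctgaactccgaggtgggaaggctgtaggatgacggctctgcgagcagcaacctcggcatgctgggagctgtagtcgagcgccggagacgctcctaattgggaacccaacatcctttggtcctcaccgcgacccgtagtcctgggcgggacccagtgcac
Eif2s3y: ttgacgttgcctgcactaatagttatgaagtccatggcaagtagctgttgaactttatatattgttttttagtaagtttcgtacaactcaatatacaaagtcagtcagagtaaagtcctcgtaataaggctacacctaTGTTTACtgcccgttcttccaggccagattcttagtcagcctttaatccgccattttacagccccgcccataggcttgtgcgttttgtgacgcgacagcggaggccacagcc
The other 3 windows hold no match in these letters, and a match is a description of the sequence only.

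The labels were checked on the targeted genes. Foxo1 was read at 304, 554, 185 and 166 and Foxo4 at 297, 291, 31.3 and 34.3, lower in the knockout at both feeding states. Foxo3 was read at 250.1, 478, 297 and 461 and was not lower in the knockout by 1.5-fold; where its probe set lies relative to the deleted part was not analysed here. The 6 skeletal muscle markers gave signals between 13224 and 18805 on every array. Hair shaft transcripts separated the arrays in another order, since the summed signal of 8 of 8 markers was 906, 42.6, 112 and 1134, with single markers between 0.6 and 11.1 on the starved control array and between 26.8 and 319 on the starved knockout array. The summed signal of 5 epidermis markers was 270.4, 655, 927 and 604. With 1 array per condition no array could be left out, and the part of these tissues in any ratio below was not tested. The knockout arrays were also dimmer as a whole, with a median signal of 23.8 and 22.9 against 26.3 and 26 on the control arrays.

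Starvation moved none of the 34 initiation factor genes by 1.5-fold in control muscle, and none in knockout muscle. Over all genes 9.23% were higher and 14.2% lower in starved control muscle, and 7.39% were higher and 9.45% lower in starved knockout muscle. The log2 ratios of the initiation factors ran from −0.30 for Eif5 to 0.53 for Eif2b4 in control muscle, with a median of 0.08 against −0.11 over all genes. In knockout muscle they ran from −0.21 for Eif2d to 0.49 for Eif2s3x, with a median of 0.03 against −0.06. The interquartile range of the initiation factors spanned 0.24 in control muscle and 0.19 in knockout muscle, against 0.57 and 0.44 over all genes. In control muscle 24 of the 34 genes had a ratio above 0, 70.6% of them, compared with 39.8% of all genes, and 29 of the 34 lay above the median of all genes. In knockout muscle 23 genes, or 67.6%, had a ratio above 0, compared with 42% of all genes, and 26 lay above the median of all genes. The initiation factors therefore stood slightly above the bulk of the transcripts on starvation and varied less, at a size under the 1.5-fold threshold throughout. In whole muscle, fewer cells of a type and less RNA per cell cannot be told apart in any of these ratios.

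**Figure D1:**
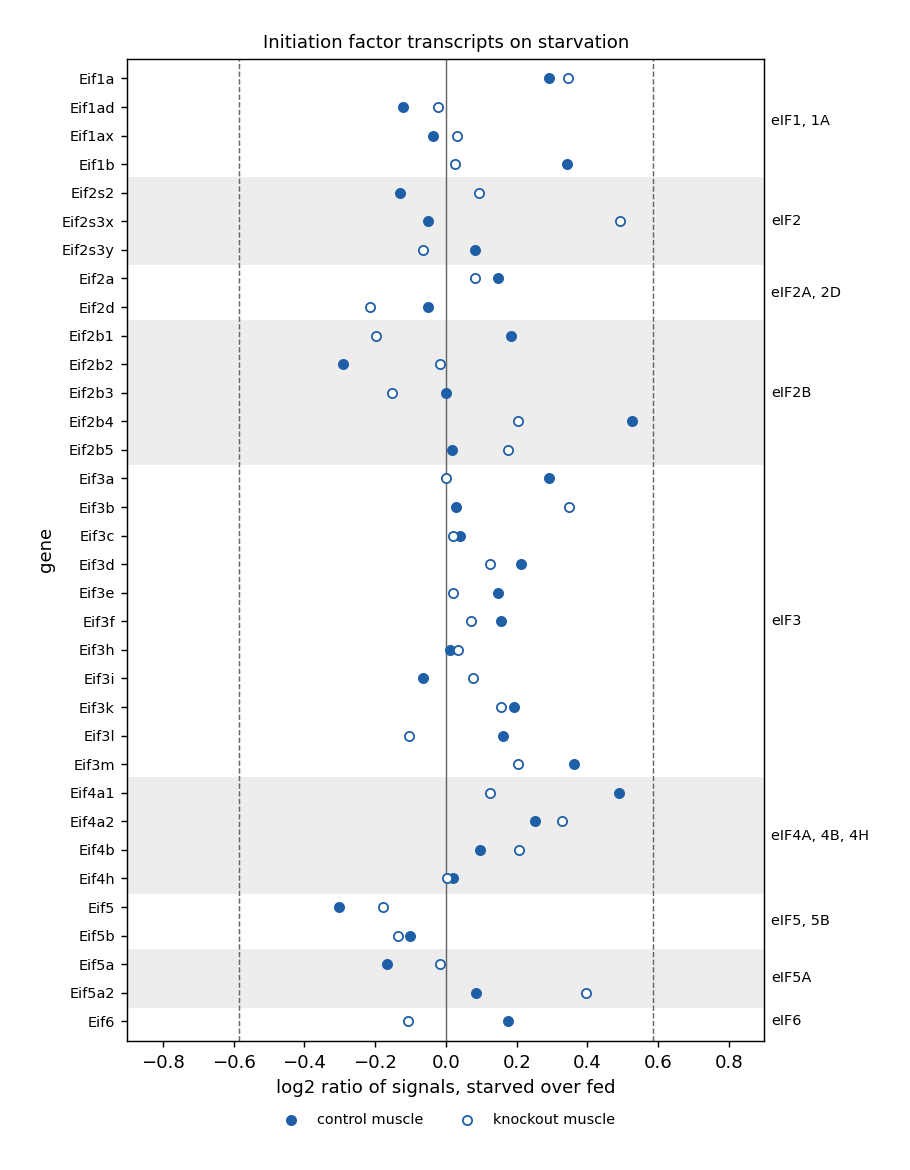
Log2 ratio of the starved to the fed signal (horizontal axis) of the 34 initiation factor genes that passed the filter, grouped by complex, in control muscle (filled) and knockout muscle (open), 1 array per condition. All points lie between the dashed lines at 1.5-fold, the rightmost being Eif2b4 in control muscle at 0.53, and 10 of 11 eIF3 genes lie above 0 in each genotype.

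The comparison was repeated among brighter genes. Of the 34 genes, 33 also passed a filter at the 75th percentile of an array, the exception being Eif5a2. Among the 7580 genes at that level 6.78% were higher and 11% lower in starved control muscle, and 3.77% were higher and 5.49% lower in starved knockout muscle. None of the 33 initiation factors was in these groups. Their medians, 0.08 in control and 0.03 in knockout muscle, compared with −0.11 and −0.05 over all genes at that level, where the interquartile range spanned 0.50 and 0.34.

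Among the factors that hold the small subunit open for scanning, the eIF1 and eIF1A genes, Eif1b had the highest ratio in control muscle. Eif1b, a close paralogue of the scanning factor eIF1, was read at 1206.5, 1530.4, 1096 and 1115. Its signal was highest in starved control muscle and lay within a narrow range on the other 3 arrays, and its log2 ratio was 0.34 in control and 0.03 in knockout muscle. Eif1a, which encodes an eIF1A form, was read at 258, 316, 188 and 239, a ratio of 0.29 in control and 0.35 in knockout muscle. Both starved arrays were above their fed partner for this gene. Eif1ax, the X-linked eIF1A gene, was read at 1307, 1275, 1227 and 1253, with ratios of −0.04 and 0.03. Its other 2 probe sets had ratios of −0.53 and −0.55 in control muscle, short of 1.5-fold, so the ratio of this gene depends on the probe set. Probe sets of eIF1A paralogues can share sequence, and their signals may not separate the genes. Eif1ad, an eIF1A domain gene listed here by its symbol and not for a part in scanning, was read at 259, 238, 219 and 216. Its ratios were −0.12 and −0.02. Its dimmer probe set was read at 213, 120, 127 and 112, where starved control muscle was lower than fed control muscle at −0.84 and the fed knockout was lower than the fed control at −0.75.

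The subunits of eIF2, the carrier of the initiator tRNA, had a median log2 ratio of −0.05 in control and 0.09 in knockout muscle over 3 genes. Eif2s2, the beta subunit, was read at 5247, 4795, 4453 and 4755 by its brightest probe set, with ratios of −0.13 and 0.09. Another of its 6 probe sets was read at 1897, 3077, 2378 and 2512, a ratio of 0.70 in control and 0.08 in knockout muscle, while the other 4 lay between −0.08 and 0.14 in control muscle. The rise in control muscle was thus limited to 1 probe set of this gene. Eif2s3x, the X-linked gamma subunit, was read at 1458, 1406, 1108 and 1559. It had the highest starvation ratio of all initiation factors in knockout muscle, 0.49, beside −0.05 in control muscle, and the low value was that of the fed knockout array. Its other 2 probe sets gave 0.12 and 0.21 in knockout muscle, and −0.06 and 0.06 in control muscle. Eif2s3x was also the only initiation factor whose fed control and starved knockout signals both exceeded the other signals. This was the order of the hair shaft markers, which 10.9% of all genes followed. Eif2s3y, its Y-linked partner, was read at 933, 987, 877 and 839, with ratios of 0.08 and −0.06. The X-linked and Y-linked genes are near copies, and probes may read both.

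Eif2a and Eif2d encode factors that can deliver initiator tRNA without eIF2. Eif2a was read at 565, 626, 541 and 573, with ratios of 0.15 and 0.08. Eif2d was read at 417, 403, 417 and 359 by its brightest probe set, with ratios of −0.05 and −0.21. The 4 probe sets of Eif2d that passed the filter gave control ratios of −0.05 to 0.41 and knockout ratios of −0.21 to 0.36, without a common direction.

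The 5 genes of eIF2B, the exchange factor that reloads eIF2, spread from −0.29 to 0.53 in control muscle, compared with −0.06 to 0.36 for the 11 eIF3 genes. Eif2b4, the delta subunit, was read at 619, 891, 725 and 835. The lowest signal was that of fed control muscle, and its log2 ratio of 0.53 in control muscle, 1.44-fold, was the highest of all initiation factors, beside 0.20 in knockout muscle. Eif2b2, the beta subunit, was at the other end with 944, 772, 852 and 842, a ratio of −0.29 in control and −0.02 in knockout muscle. A dimmer probe set of Eif2b2, read at 305, 215, 324 and 241, had ratios of −0.51 and −0.43, short of 1.5-fold. The dimmest, read between 88.3 and 103, gave 0.02 and −0.06. Eif2b5, the catalytic epsilon subunit, was read at 548, 555, 443 and 501, with ratios of 0.02 and 0.18. Eif2b1, the alpha subunit that senses phosphorylated eIF2, was read at 378, 429, 430.0 and 375, with ratios of 0.18 and −0.20. Its order over the arrays was thus the reverse of the hair shaft markers, an order shared by Eif6 and by 6.65% of all genes. Eif2b3, the gamma subunit, was read at 347, 347, 316 and 285. The median of the 5 genes was 0.02 in control and −0.02 in knockout muscle, so the complex as a whole did not follow Eif2b4.

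The subunits of eIF3, the large scaffold on the small ribosomal subunit, mostly had ratios above 0. Of 11 genes, 10 had a log2 ratio above 0 in control muscle and 10 in knockout muscle, compared with 39.8% and 42% of all genes. The group medians were 0.16 and 0.07. For 8 of the 11 genes the ratio was larger in control muscle, compared with 45.7% of all genes. The difference was only 0.02 for Eif3c and 0.04 for Eif3k, and this count was not repeated with other scalings. The exception in control muscle was Eif3i, read at 3585, 3428, 3072 and 3239, at −0.06, and its second probe set gave 0.15. The exception in knockout muscle was Eif3l, read at 901, 1007, 880.2 and 819, at −0.10, beside 0.16 in control muscle. None of these ratios reached 1.5-fold by the brightest probe set of a gene.

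Eif3a encodes the largest subunit, around which the complex is built. Its brightest probe set was read at 2631, 3218, 2252 and 2254, a log2 ratio of 0.29 in control muscle and 0.00 in knockout muscle. The starved control array was the highest and both knockout arrays were alike. Its other 3 probe sets were read at 1216, 1826, 1031 and 1247, at 292, 443, 316 and 233, and at 190.1, 318.5, 187 and 247. Each of these was highest on the starved control array, and each passed 1.5-fold in control muscle, with ratios of 0.59, 0.60 and 0.74. In knockout muscle the 4 probe sets ranged from −0.44 to 0.40, without a common direction and with none past the threshold. Starved knockout muscle was below starved control muscle by all 4, with log2 ratios from −0.93 to −0.37. Whether Eif3a is called higher on starvation in control muscle therefore depends on the probe set, and only the direction was shared.

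Eif3m, a subunit of the outer part of eIF3, was read at 1506, 1936, 1729 and 1991, with ratios of 0.36 and 0.20. Fed control muscle was the lowest of the 4 arrays. A second, dim probe set of this gene, read at 25.1, 40.7, 56.3 and 36.6, gave 0.70 in control and −0.62 in knockout muscle, so the probe sets disagreed in the knockout. Eif3b, which encodes a core scaffold subunit, was read at 454, 462, 396 and 504, and had the highest eIF3 ratio in knockout muscle, 0.35, beside 0.03 in control muscle. Eif3c, another core subunit, was read at 2175, 2236, 1993 and 2020 and gave 0.04 and 0.02, with its 4 probe sets between −0.01 and 0.19 in control muscle. Eif3f, which encodes a subunit known in muscle as a target of the ubiquitin ligase atrogin-1, was read at 3391, 3778, 2940 and 3090, with ratios of 0.16 in control and 0.07 in knockout muscle. The transcript of Eif3f was therefore not lower in starved muscle of either genotype on these arrays. Eif3d, Eif3e and Eif3k had ratios of 0.21, 0.15 and 0.19 in control muscle and of 0.12, 0.02 and 0.16 in knockout muscle. Eif3e was read at 5440, 6030, 5285.5 and 5361. Its probe sets gave knockout ratios of −0.0068 to 0.021, without a common direction. Eif3h stayed closest to 0 of this complex in control muscle, at 0.01, and was at 0.04 in knockout muscle.

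**Figure D2:**
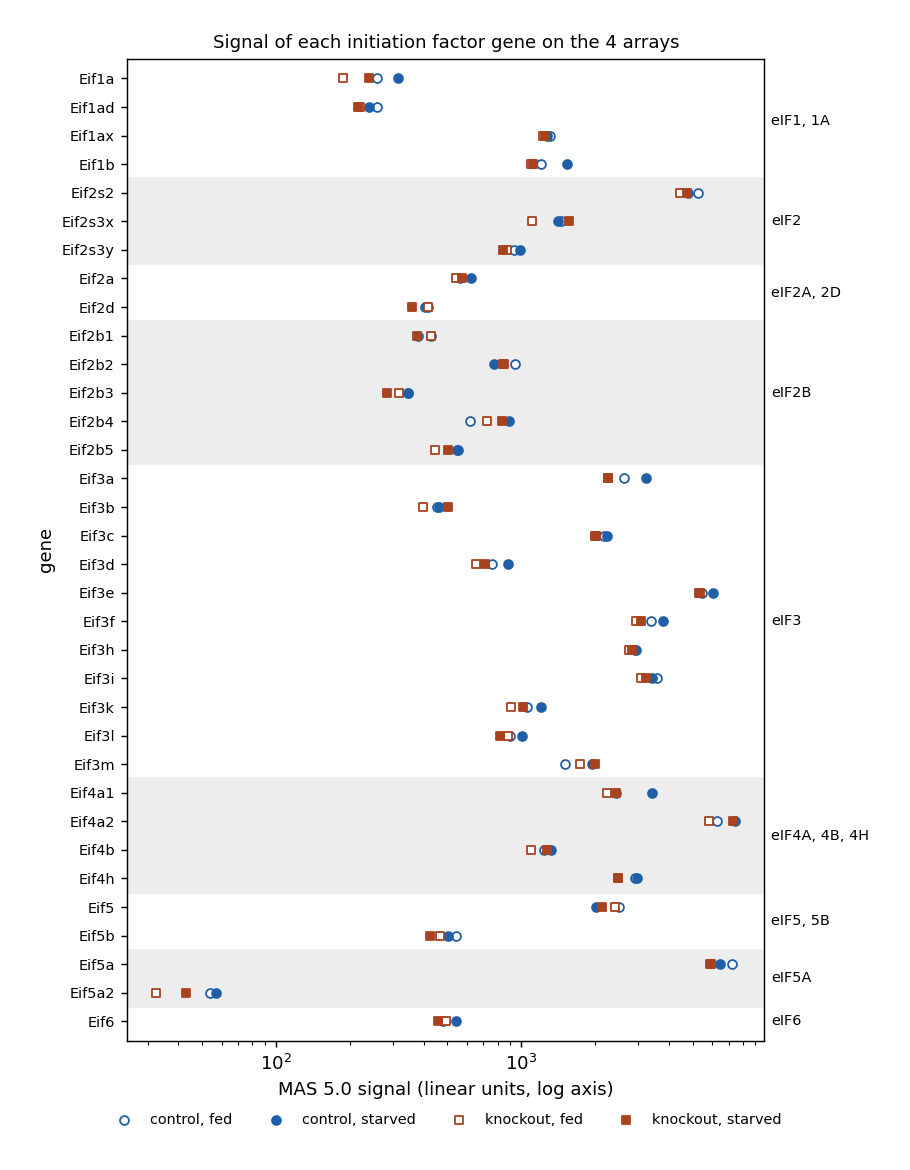
MAS 5.0 signal (log axis, linear units) of the 34 initiation factor genes on each of the 4 arrays and the brightest probe set of each gene. Most genes keep the 4 points close together, and starved control muscle (filled circles) gives the highest signal for 21 of the 34 genes, among them Eif4a1 at 3407.

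The eIF4A helicases and their cofactors eIF4B and eIF4H had ratios above 0 in both genotypes for all 4 genes past the filter, with a median of 0.17 in each. Eif4a1, the main eIF4A helicase, was read at 2427, 3407, 2238 and 2440. Starved control muscle stood above the other 3 arrays, which lay close together, and the log2 ratio was 0.49 in control muscle, 1.40-fold, and 0.12 in knockout muscle. The other 2 probe sets of Eif4a1 were read at 1507, 1951, 1399 and 1544.5 and at 2103, 2862, 1842 and 2350.1. All 3 gave a ratio between 0.37 and 0.49 in control muscle and between 0.12 and 0.35 in knockout muscle. The ratio of starved knockout to starved control was below 0 for all 3, at −0.48 to −0.28. The probe sets of Eif4a1 thus gave nearly the same ratio in control muscle, and none of them passed 1.5-fold. Eif4a2, the paralogue expressed strongly in differentiated tissues, was read at 6280, 7471, 5829 and 7319. Both starved arrays were above both fed arrays, and the ratios were 0.25 and 0.33. Eif4b, the RNA-binding cofactor of eIF4A, was read at 1237, 1322, 1098.5 and 1268, with ratios of 0.10 and 0.21, and its 3 probe sets lay above 0 in both genotypes. Eif4h was read at 2917, 2958, 2486 and 2491 and gave 0.02 in control and 0.0033 in knockout muscle, the smallest movement of this group by the brightest probe sets. Its 5 probe sets had control ratios of −0.55 to 0.02, without a common direction, and knockout ratios of 0.0033 to 0.17. The −0.55 came from a dim probe set, read at 32.3, 22.1, 19.8 and 22.3.

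Among the factors that act at and after the start codon, Eif5 and Eif5b had ratios below 0 in both genotypes. Eif5, the activator of GTP hydrolysis by eIF2, was read at 2497, 2023, 2419 and 2140. Both starved arrays were below both fed arrays, with ratios of −0.30 in control, the lowest of all initiation factors, and −0.18 in knockout muscle. Its 5 probe sets were less uniform, since their control ratios were −0.30 to 0.07 and their knockout ratios −0.18 to 0.17. Eif5b, which joins the large ribosomal subunit, was read at 540.2, 504, 468 and 426, with ratios of −0.10 and −0.14, and its other 2 probe sets gave 0.43 and −0.30 in control muscle. Eif5a, a factor with a hypusine residue that helps the ribosome through difficult stretches, was read at 7266, 6470, 5960 and 5888. Fed control muscle was the highest of its 4 arrays, with ratios of −0.17 and −0.02, and a second probe set gave −0.16 and 0.02. Eif6, which keeps free large subunits from joining, was read at 482, 544, 491 and 456, with ratios of 0.18 and −0.11. A dim probe set of Eif6 gave −0.12 and 0.80, opposite in both genotypes.

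**Figure D3:**
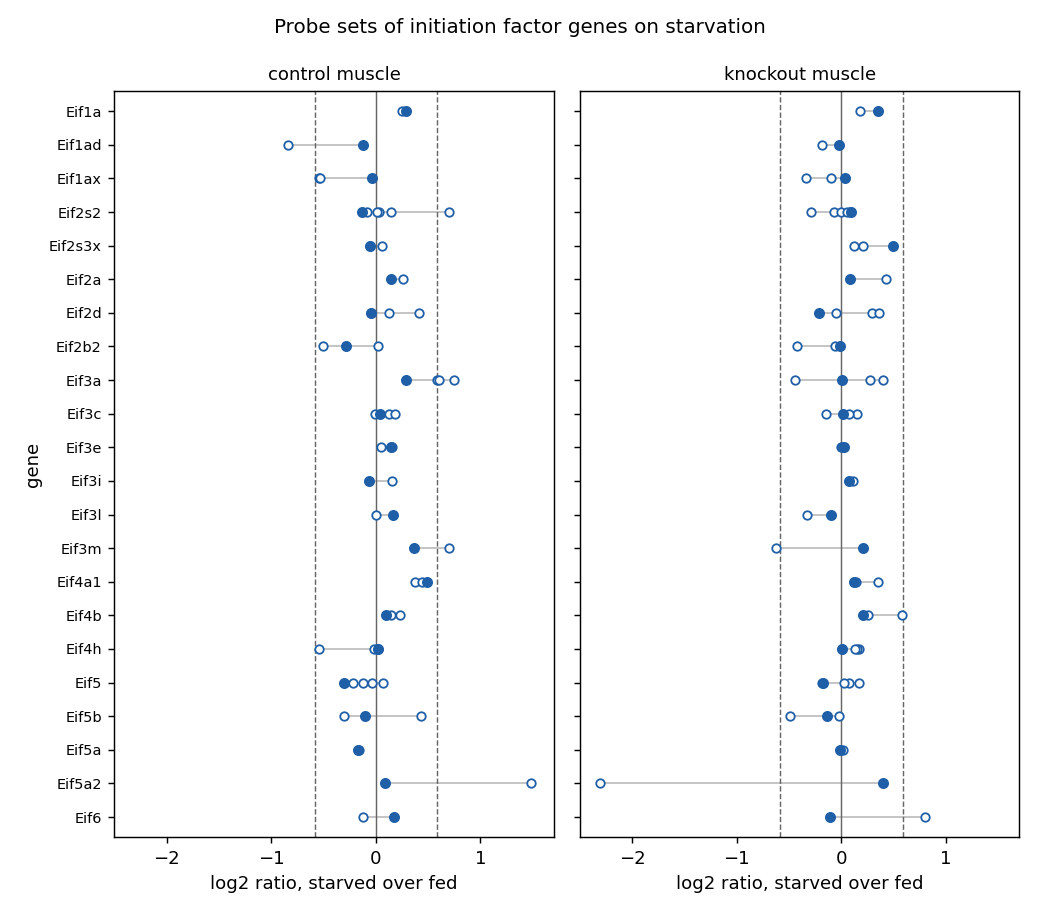
Log2 ratio of the starved to the fed signal of every probe set past the filter for the 22 initiation factor genes with more than 1, in control muscle (left) and knockout muscle (right), with the brightest probe set of each gene filled. Eif3a and Eif4a1 have all probe sets above 0 in control muscle, between 0.29 and 0.74 and between 0.37 and 0.49, whereas Eif5a2 has its pair furthest apart.

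Probe sets of 1 gene read the same pooled RNA and are no replicates of a condition, but they show how far the readout of a gene varied. Of 91 probe sets of the initiation factors, 79 passed the filter. Of the 22 genes with more than 1 of these, 11 had all of them in 1 direction on starvation in control muscle and 11 in knockout muscle. Counted singly, 6 of the 79 probe sets were higher in starved control muscle, for Eif3a, Eif2s2, Eif3m and Eif5a2, and 1 was lower, for Eif1ad. Over all 22180 probe sets that carry 1 gene and passed the filter, 10.1% were higher and 14.5% lower. In knockout muscle 1 of the 79 was higher, for Eif6, and 2 were lower, for Eif3m and Eif5a2, beside 7.61% and 11.1% over the same probe sets of all genes. In the fed knockout 2 of the 79 were higher than in the fed control, for Eif3m and Eif5a2, and 4 were lower, for Eif1ad, Eif4h, Eif5a2 and Eif6, beside 4.04% and 12.2%. In the starved knockout none was higher and 3 were lower, for Eif3a, Eif3l and Eif5a2, beside 6.38% and 17%. Of the 6 probe sets that were higher in control muscle, the 3 of Eif3a were the only ones from the same gene. The second probe set of Eif5a2, read at 9.7, 27.1, 27.2 and 5.5, gave a call in each of these comparisons. It reached the array median only on the starved control and fed knockout arrays, where it was high. The Eif4h probe set called here, read at 32.3, 22.1, 19.8 and 22.3, reached it only on the fed control array. Both were counted only through arrays where they were high, so these calls are no support for a change.

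The knockout was next set against the control at the same feeding state. In fed muscle 1 of the 34 initiation factors was lower and none higher, beside 11.3% lower and 3.38% higher over all genes. In starved muscle none was lower or higher, beside 14.6% and 6.39% over all genes. The median log2 ratio of knockout to control was −0.14 in fed muscle, with 4 of 34 genes above 0, and −0.16 in starved muscle, with 5 above 0. The medians over all genes were −0.20 and −0.16, and 19 and 17 of the 34 genes lay above them. With each array scaled to the same trimmed mean the medians of the initiation factors turned to 0.051 and 0.020 and those of all genes to −0.0015 and 0.016, and the direction of both genotype medians depended on the scaling. Over all genes the calls were 425 higher and 1416 lower in the fed knockout, which became 687 and 776 with that scaling, and 803 higher and 1835 lower in the starved knockout, which became 1241 and 1060. For starvation 1160 higher and 1789 lower became 1349 and 1468 in control muscle, and 928 and 1188 became 1043 and 1008 in knockout muscle. Both knockout comparisons use the arrays of the starvation comparisons, so they are not independent of them.

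The gene that was lower in the fed knockout was Eif5a2, the paralogue of Eif5a, which was dim at 53.6, 56.9, 32.5 and 42.8. The control arrays were above the knockout arrays, with log2 ratios of −0.72 in fed and −0.41 in starved muscle. Its second probe set was read at 9.7, 27.1, 27.2 and 5.5, a ratio of 1.49 in fed and −2.30 in starved muscle. The probe sets were thus opposite in fed muscle. The second one reached the array median only on the starved control and fed knockout arrays. The call of Eif5a2 was lost with each of the 3 scalings tried, where the fed ratio was −0.53, −0.58 and −0.54 with trimmed mean, median and quantile scaling.

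On the deposited scale the genotype ratios nearest to the threshold in starved muscle were those of Eif3a at −0.51, Eif4a1 at −0.48 and Eif1b at −0.46. Each of these genes had its highest signal on the starved control array. In fed muscle Eif1a was at −0.46 and Eif2s3x at −0.40, where the fed knockout array was the lowest of the 4. Trimmed mean scaling raised all genotype ratios of a feeding state alike, so which genes lay nearest to the threshold depended on the scaling. The genes above 0 in the fed knockout were Eif2b4 at 0.23, Eif3m at 0.20, Eif2b1 at 0.19 and Eif6 at 0.03 on the deposited scale, and with trimmed mean scaling 19 of the 34 genes were above 0. Starved control muscle gave the highest signal of the 4 arrays for 21 of the 34 genes, compared with 32% of all genes, and fed control muscle for 9, compared with 46.6%. With each array scaled to the same trimmed mean these became 13 genes, beside 27.7% of all genes, and 3 genes, beside 25.3%. Starved knockout muscle was then highest for 15, beside 23.5%, so the share held by the control arrays moved with the scaling.

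**Figure D4:**
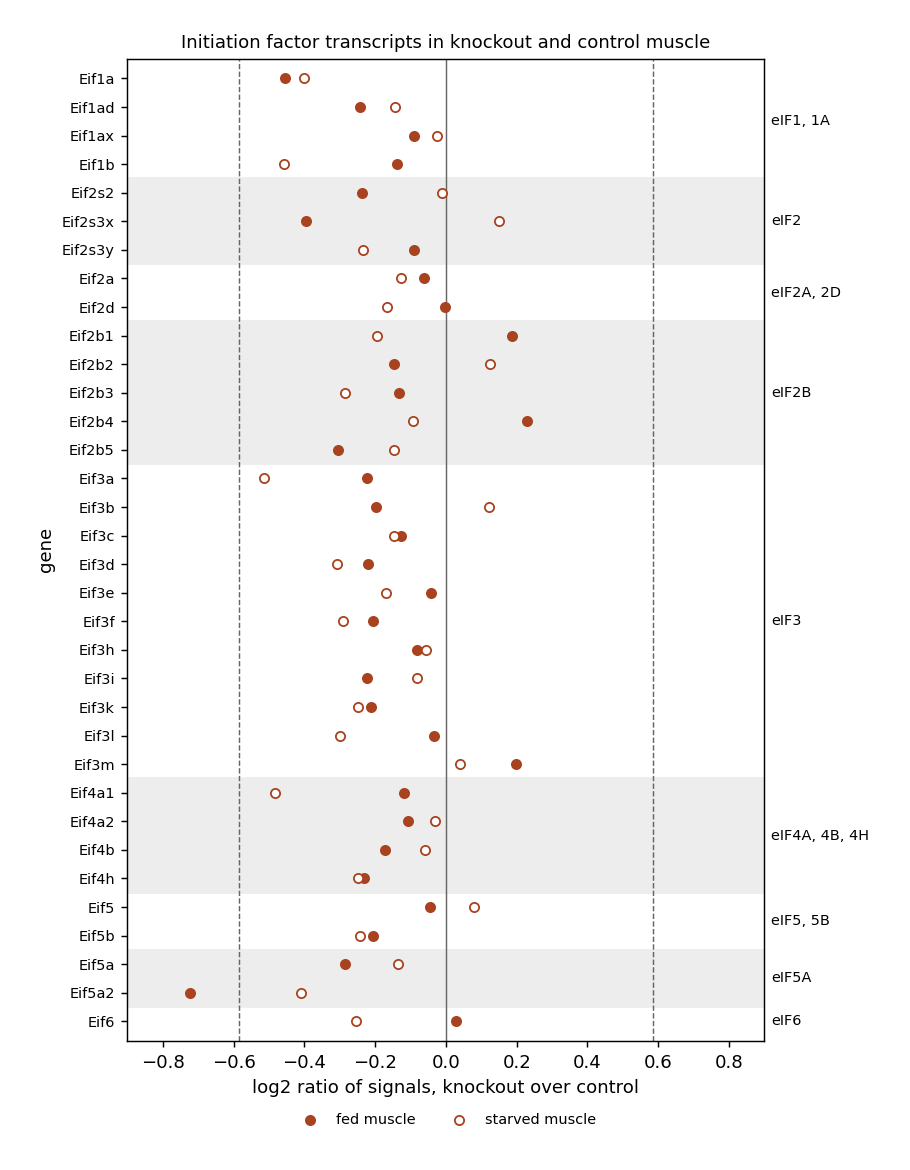
Log2 ratio of the knockout to the control signal of the 34 initiation factor genes in fed muscle (filled) and starved muscle (open), 1 array per condition, with dashed lines at 1.5-fold. Most points lie below 0, as they do over all genes, and Eif5a2 in fed muscle, at −0.72, is the only point past a dashed line.

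The response to starvation was compared between genotypes gene by gene. For 19 of the 34 genes, 55.9%, the control ratio exceeded the knockout ratio, compared with 45.7% of all genes. The difference, control minus knockout, had a median of 0.03 and ran from −0.54 for Eif2s3x to 0.38 for Eif2b1, beside a median of −0.04 over all genes. With each array scaled to the same median the count was 15 of 34 and the median difference −0.011, so the sign of the difference depended on the scaling. The median of all genes was then −0.080, and 20 of the 34 genes lay above the median of all genes on either scale. The difference was 0.36 for Eif4a1, 0.32 for Eif2b4, 0.32 for Eif1b and 0.29 for Eif3a. In the other direction it was −0.32 for Eif3b, −0.31 for Eif5a2 and −0.27 for Eif2b2. By the other probe sets of Eif4a1 it was 0.23 and 0.09, and by those of Eif3a 0.31, 0.34 and 1.04. With 1 array per condition none of these differences could be tested.

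A wider set of translation genes was read in the same way. Of 45 genes in 4 related lists, 5 (11.1%) were higher and 1 (2.22%) lower in starved control muscle, beside 9.23% and 14.2% of all genes. In starved knockout muscle 3 (6.67%) were higher and 1 (2.22%) lower, beside 7.39% and 9.45%. The shares that were higher were thus near those over all genes. The medians of the 45 genes were −0.07 and −0.03. Between genotypes 2 of the 45 genes (4.44%) were lower in the fed knockout and none higher, beside 11.3% and 3.38% of all genes. In the starved knockout 7 (15.6%) were lower and 1 (2.22%) higher, beside 14.6% and 6.39%. The genes called on starvation are given below by list.

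The genes of eIF4F and the proteins that bind its subunits gave 2 higher and 1 lower of 12 in control muscle, and 1 higher in knockout muscle. Eif4ebp1, the translational repressor that holds eIF4E, was read at 1316, 5621, 874 and 1507, a log2 ratio of 2.09 in control and 0.79 in knockout muscle. The starved control array stood apart and the starved knockout array was above its fed partner by less. Eif4g3, a scaffold of eIF4F, was read at 905, 1373, 860 and 886, with ratios of 0.60 and 0.04. Like Eif4a1 it was highest on the starved control array. Eif4e, the cap-binding protein, was read at 2065, 1196.5, 1710.4 and 1629 and fell in control muscle, at −0.79, beside −0.07 in knockout muscle.

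The kinases and phosphatases of the eIF2 alpha subunit gave 3 higher of 11 in control muscle and 1 in knockout muscle. Ppp1r15a, which encodes GADD34 and brings the phosphatase to eIF2, was read at 258, 685, 159 and 281, with ratios of 1.41 and 0.82. Impact, an inhibitor of the kinase GCN2, was read at 235, 443, 193 and 186, with ratios of 0.91 and −0.05. Eif2ak4, which encodes GCN2, the kinase that responds to amino acid shortage, was dim at 39.5, 64.1, 46.4 and 45.7, with ratios of 0.70 and −0.02. For Impact and Eif2ak4 the starved control array was the highest and the knockout arrays were alike by these probe sets. A second, dim probe set of Impact was read at 25.2, 65.6, 24.9 and 35. It was also highest on the starved control array, but gave 0.49 in knockout muscle. The subunits of eIF2 and eIF2B that were read were not called by their brightest probe sets on the deposited scale. The alpha subunit gene Eif2s1 had no single-gene probe set and was not among them. In control muscle 1 probe set of Eif2s2 passed 1.5-fold, at 0.70, and Eif2b4 passed it with trimmed mean and quantile scaling, at 0.59 and 0.61.

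Of 12 other initiation and recycling factors, among them Denr, Abce1 and Ddx3x, none was called in either genotype, and their median was −0.21 in control and −0.02 in knockout muscle. Of 10 elongation and termination factors none was called in control muscle. In knockout muscle Eef2k, the kinase that inhibits the elongation factor eEF2, was read at 906, 628, 875 and 1630.1, with ratios of −0.53 in control and 0.90 in knockout muscle. The starved knockout array was the highest of the 4. A second probe set fell in control muscle, at −1.81, and gave −0.03 in knockout muscle, and the last one gave 0.08 in control muscle and was higher in starved knockout muscle, at 0.88. The opposite movement was therefore not shared, whereas all 3 were higher in the starved knockout than in the starved control, at 1.38, 1.97 and 1.06. Eefsec, the selenocysteine elongation factor, was dim at 83.9, 72, 67.3 and 41.1 and fell in knockout muscle, at −0.71. The elongation factors Eef1a1 and Eef2 gave −0.0044 and 0.16 in control muscle.

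**Figure D5:**
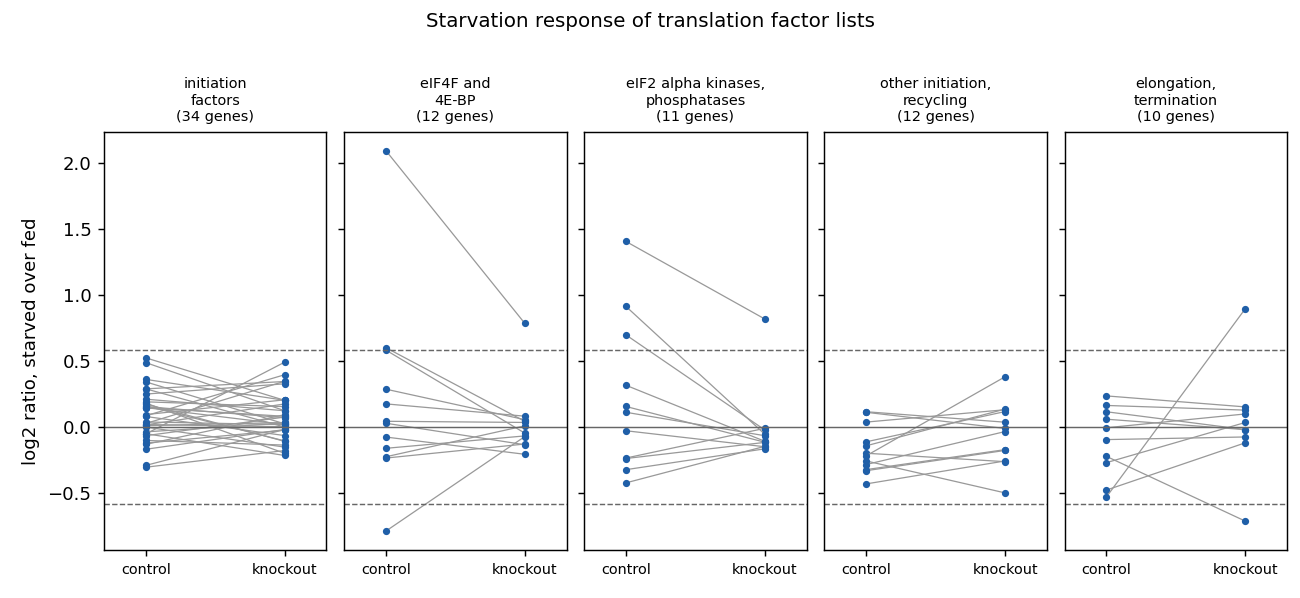
Log2 ratio of the starved to the fed signal in control and knockout muscle, 1 line per gene, for the 34 initiation factors and 4 lists of related genes, with dashed lines at 1.5-fold. The initiation factors and the other initiation and recycling factors stay between the dashed lines, while Eif4ebp1 reaches 2.09 in control muscle.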

How the data were processed

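RNA of each pool was read on Affymetrix Mouse Genome 430 2.0 arrays. The deposited table holds MAS 5.0 signal intensity per probe set, on a linear scale, which the authors made with MAS5 in Affymetrix Expression Console, as the submitters' processing notes name them. A scaling target and detection calls were not given in the sources used here. Intensities were used as deposited, floored at 0.1, and compared as log2 ratios with no test, since each condition had 1 array of pooled RNA; the number of arrays limits the precision.

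Of 45037 probe sets without controls, 34945 had 1 gene, 932 several and 9160 were not listed. Symbols of 34741 were updated by gene identifier to RefSeq (GRCm38.p6). Each gene was represented by its brightest probe set, on the mean of the 4 arrays. A gene passed the filter if it reached the 50th percentile of an array on at least 1 array, and calls were made at 1.5-fold. All members were named, with full signals where called, where probe sets disagreed or where the subunit defines its complex, plus others near the threshold. Of the related lists, at most 4 called genes were named per list. Named after their values were seen were Denr, Abce1, Ddx3x, Eef1a1 and Eef2. The member rule and the lists were chosen with earlier results of these data known. Alternatives were other scalings, filters, folds, an offset of 32 and other choices of probe set. Markers of macrophage, erythroid, adipocyte, fibroblast and endothelial cells were also summed. Scripts (Python 3.11.15, numpy 2.4.6, pandas 2.3.3, matplotlib 3.10.9) were tested on simulated data.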

Additional observations from a re-analysis of the deposited data

Results flagged for a closer look

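Of the 45 related translation genes, 17 had starvation log2 ratios of opposite sign in the genotypes by their brightest probe set. The share of all genes with opposite signs was not computed, so whether this count is unusual cannot be told. In 3 of the 17 genes 1 of the ratios passed 1.5-fold and the ratios also differed by that much. The difference, control minus knockout, was 0.97 for Impact, 0.72 for Eif2ak4 and −1.43 for Eef2k. These differences were not tested, since each ratio rests on 1 array per condition, and the knockout ratios of Impact and Eif2ak4, −0.05 and −0.02, are close to 0. A second probe set of Impact gave 1.38 in control and 0.49 in knockout muscle, the same direction in both.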

How the results depend on the processing

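No paired analysis was possible because each condition has 1 array, and no array could be left out for the same reason. Scaling each array to the same trimmed mean, to the same median or by quantile normalization turned the median log2 ratio of the initiation factors in the fed knockout from −0.14 to 0.051, 0.0012 and 0.029, and in the starved knockout from −0.16 to 0.020, 0.026 and 0.0028. In starved control muscle 1 initiation factor was higher with trimmed mean scaling and with quantile normalization, Eif2b4 at 0.59 and 0.61. Of 12565 genes 1349 were higher with each of these scalings. With the mean over the probe sets of a gene 1 initiation factor was higher, Eif5a2 at 0.78. That mean also gave 1 lower in starved knockout muscle (Eif5a2, −0.95) and 1 higher in the fed knockout (Eif3m, 0.68). It gave 2 lower in the starved knockout (Eif5a2, −1.36, and Eif3a, −0.59). It turned Eif5a2 in the fed knockout to 0.38, where Eif6, at −0.63, took its place. The Eif5a2 means include its second probe set, which reached the array median only on the starved control and fed knockout arrays. Of 12565 genes the same mean gave 1168 higher in starved control muscle and 1236 lower in starved knockout muscle. It gave 491 higher and 1453 lower in the fed knockout, and 1885 lower in the starved knockout. The count of 1 lower in the fed knockout was 0 with each of the 3 scalings, the filter at the 75th percentile, 32 added to every signal and a 2-fold threshold. Without a filter 1 initiation factor gene, Eif4a3, was higher in the starved knockout, beside 2419 of 18193 genes. Counting every probe set, an alternative chosen after seeing the data, gave 6 higher and 1 lower in starved control muscle, 1 and 2 in starved knockout muscle, 2 and 4 in the fed knockout, 0 and 3 in the starved knockout, and 43 of 79 with the higher ratio in control muscle. With each array scaled to the same median, 15 of 34 genes had the higher ratio in control muscle, against 19 on the deposited scale. The median difference turned from 0.028 to −0.011, while that of all genes went from −0.041 to −0.080. In starved control muscle the median of the initiation factors stood above that of all genes by 0.20 on the deposited scale. Trimmed mean and median scaling move all genes of an array alike, so they could not change this gap. It was 0.20 with quantile normalization, 0.15 with 32 added to every signal and 0.17 without the eIF4A genes. Of 554 single-gene values recomputed, 481 moved by at most 0.1. Many of these could hardly move more. Trimmed mean and median scaling shift all starvation ratios of a genotype alike, by under 0.1, and a gene with 1 probe set keeps its value under other choices of probe set. The count is therefore no measure of stability. The number of arrays, the pooling and probe sets dim against the array median limit all of these values.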

Other observations

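Summed signals of other cell types, as fed control, starved control, fed knockout and starved knockout, were 4901, 4755, 3801 and 3624 for 5 macrophage markers. They were 21367, 16784, 19147 and 15801 for 4 fibroblast markers and 1876, 1736, 1522 and 1486 for 4 endothelial markers. The 2 adipocyte markers named by a probe set summed to 17387, 19493, 15367 and 15963, mostly from Fabp4. Adipoq alone was read at 4011.5, 4518, 3388 and 2511. The 2 erythroid markers summed to 64.8, 127, 53.2 and 71.4, almost all from Alas2. Hba-a1 was read at 2.2, 1.8, 2.5 and 3.1 and did not pass the filter. The part of these cells in the ratios of the initiation factors was not tested.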
